A study of Mus musculus with 8 samples.

Results

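Disease-associated microglia (DAM) genes were examined in the cortex of 8-mo-old mice by total RNA sequencing. The set held 10 named genes, Trem2, Tyrobp, Apoe, Cst7, Clec7a, Itgax, Lpl, Axl, Cd68 and Cd9, of the 54532 genes in the table of raw counts, and its members were taken from the table by gene name. Each name matched 1 gene. The mice fell into 2 groups, with 1 library per mouse: 4 PS19 mice (m659, m665, m668 and m677) and 4 Adrb1-A187V;PS19 mice (m658, m660, m661 and m671). PS19 mice express mutant (P301S) human tau from a transgene driven by the mouse prion promoter. Adrb1-A187V;PS19 mice carry the same transgene and, in addition, 1 copy of the Adrb1-A187V knock-in, labelled Adrb1+/m, in the gene of the β1-adrenergic receptor. All 8 mice therefore carried the tau transgene, and mice without it were not analysed here. The comparison asked whether the receptor mutation was accompanied by different levels of DAM genes in the cortex of mice with tau pathology.

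Microglia are the resident macrophages of the brain. DAM are a state that microglia enter around amyloid plaques, in tau pathology and in other neurodegeneration, and its full form depends on TREM2, a surface receptor for lipids and lipoproteins that signals through the adaptor TYROBP. In this state the phagocytic, lysosomal and lipid-handling genes rise and genes of resting, homeostatic microglia such as P2ry12 and Tmem119 fall. In bulk cortex, fewer cells of a type and less RNA per cell cannot be told apart, and Apoe, Cd9, Axl and Lpl are also expressed by other brain cells.

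Libraries held between 14653222 and 21223754 counts. Adrb1 was at 36.8 ± 4.19 CPM (normalized read count, scaled to the library total with the TMM method) in PS19 mice, mean ± SD, n = 4, and at 35.0 ± 3.71 in Adrb1-A187V;PS19 mice, with a log2 fold change of -0.07 (SE 0.09). The knock-in is a substitution, so this level does not check the genotype labels. Mapt, the mouse tau gene, and Prnp, whose promoter drives the transgene, had log2 fold changes of -0.05 (SE 0.04) and -0.06 (SE 0.05). Of the 17195 genes tested, 481 (2.8%) passed an unadjusted p of 0.05 and 0 passed after Benjamini-Hochberg adjustment (edgeR quasi-likelihood test). The same test on simulated counts recovered 77.7% of genes changed by 2-fold after adjustment in this comparison. The changed genes were drawn at random from those tested, whose median SD of log2 CPM over the 8 mice was 0.151. Among the members this SD ran from 0.206 for Axl to 1.76 for Cst7, so the share does not give the recovery for the members.

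All 10 DAM genes had enough counts to be tested between genotypes. None passed the unadjusted threshold in edgeR, DESeq2 or limma-voom, against 2.8% of all genes in edgeR, and every adjusted p in edgeR was 0.9996. In 6 members the mean fold change was above 0 and in 4 below it. The median log2 fold change of the members was 0.04, against 0.0005 for all genes tested. CPM of the genotypes overlapped in all 10 members. Of all genes, 2.02% did not overlap (1.02% higher and 1.0% lower in Adrb1-A187V;PS19 mice). At shares this low, 0 of 10 does not set the members apart from other genes in either count. The plot of the 95% intervals shows how wide each of these differences could be.

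**Figure D1:**
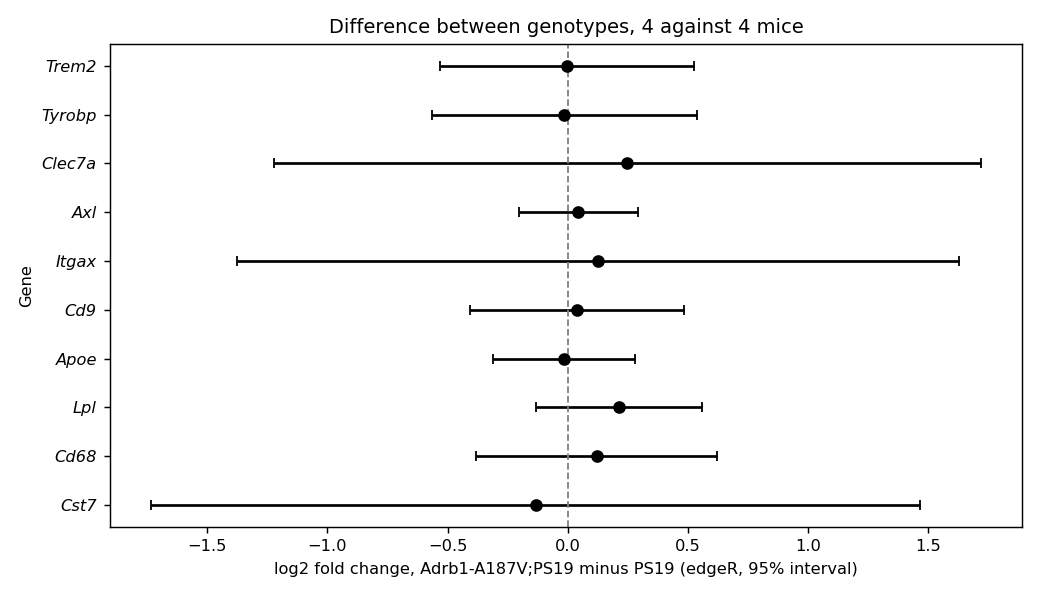
Fitted log2 fold change of each DAM gene (x axis, Adrb1-A187V;PS19 minus PS19, edgeR) with its 95% interval, 4 mice against 4. All 10 intervals span 0, and they are narrowest for Axl (-0.20 to 0.29) and widest for Cst7 (-1.73 to 1.47).

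The spread lay within each genotype. In 9 of the 10 members, all but Lpl, the 4 mice with the highest CPM were m659 and m677 of the PS19 group and m658 and m660 of the Adrb1-A187V;PS19 group. These same 4 mice were highest in 3.84% of all genes tested and lowest in 2.68%. This set of mice was read off the level of Cst7, so the counts describe these libraries and are no test. Mouse m660 was the highest in 6 members, m671 took the fifth place in 9, and m661 was the lowest in 7 with m665 the lowest in the other 3. The mean rank over the 10 members was 1.5 for m660, 2.8 for m659, 2.9 for m658, 3.2 for m677, 4.8 for m671, 6.1 for m668, 7.1 for m665 and 7.6 for m661. The fourth mouse was 2.71 times the fifth or more in Cst7, Clec7a and Itgax, but only 1.09 times in Apoe. This step was 1.51 times in Tyrobp, 1.34 in Cd9, 1.31 in Trem2, 1.29 in Cd68 and 1.16 in Axl. How far the 4 high mice stood apart from the others thus differed between members. No correlation between members is given over the 8 mice, since in Cst7, Clec7a and Itgax it would rest on that step.

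**Figure D2:**
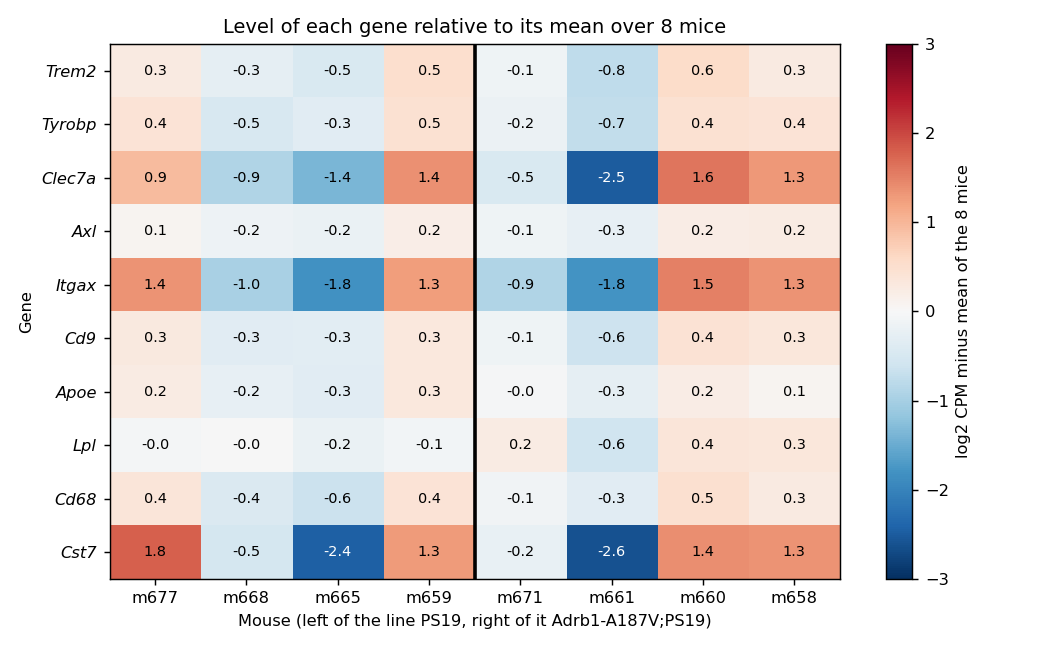
Level of each DAM gene (rows) in each mouse (columns) as log2 CPM minus the mean of the 8 mice, with red above and blue below the mean and PS19 mice to the left of the black line. Mice m677, m659, m660 and m658 are above the mean in 9 of the 10 genes, and the steepest contrasts are in Cst7, Itgax and Clec7a.

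The size of this spread separated Cst7, Clec7a and Itgax from the other members. The highest CPM was 25.7 times the lowest for Cst7, 20.1 times for Clec7a and 11.0 times for Itgax. It was 2.50 times for Trem2, 2.33 for Tyrobp, 2.21 for Cd68, 2.07 for Cd9, 1.93 for Lpl, 1.59 for Apoe and 1.42 for Axl. The median over the members was 2.27, against 1.33 for all 15774 genes with a mean of at least 1 CPM, of which 39 (0.247%) reached a ratio of 10. Between the fourth and the fifth mouse the level dropped by a factor of 4.61 for Itgax, 2.94 for Cst7 and 2.71 for Clec7a, and by 1.51 for Tyrobp and less for every other member. A ratio of at least 2 at this position was found in 14 genes (0.0888%), and in 7 of them, Itgax, Cxcl5, Cst7, Clec7a, Siglecf, Gfap and Cd74, the same 4 mice were highest. Low counts limit the lower end of these ratios: the lowest library held 11 counts of Cst7 (exact 95% Poisson interval 5.49 to 19.7), 14 of Clec7a (7.65 to 23.5) and 25 of Itgax (16.2 to 36.9), intervals that cover counting error only.

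**Figure D3:**
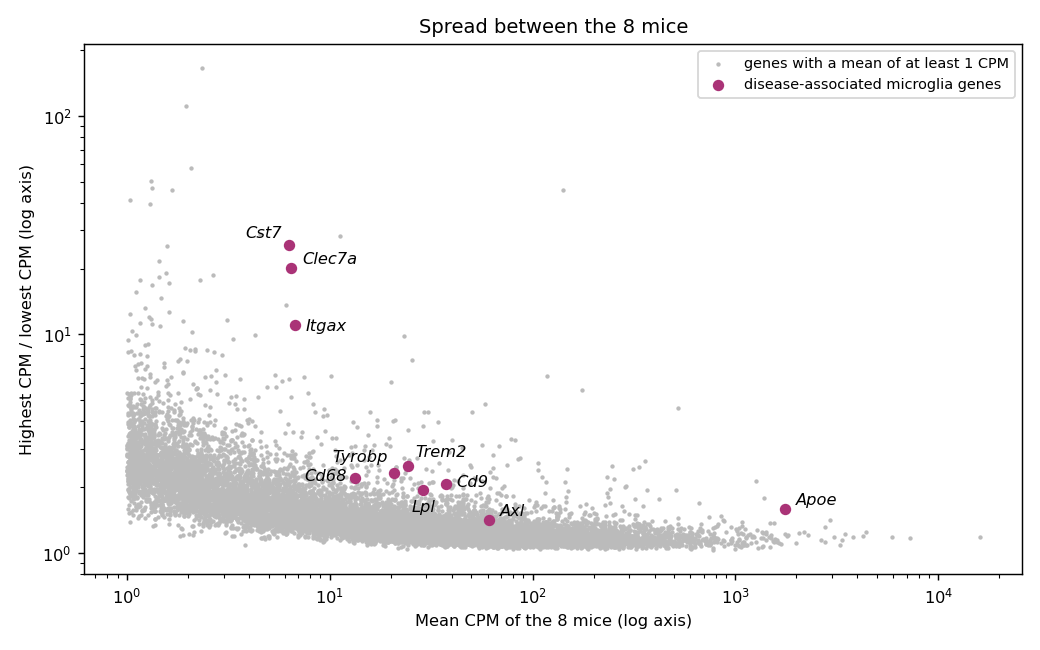
Ratio of the highest to the lowest CPM among the 8 mice (y axis, log scale) against the mean CPM (x axis, log scale) for the 15774 genes with a mean of at least 1 CPM (grey) and the 10 DAM genes (purple). Cst7, Clec7a and Itgax lie far above genes of like level, at ratios of 25.7, 20.1 and 11.0, while Axl, at 1.42, lies at the upper part of the grey cloud.

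The stretches of DNA just upstream of Cst7, Clec7a, Itgax and Trem2 are shown because these genes moved together over the mice while differing in how far they moved. Each is the 250 bases before a RefSeq start site (GRCm38.p6), written 5′ to 3′ on the strand of the gene, at chr2:150570165-150570414 (plus strand) for Cst7, chr6:129472780-129473029 (minus strand) for Clec7a, chr7:128129300-128129549 (plus strand) for Itgax and chr17:48346151-48346400 (plus strand) for Trem2. Capitals mark the letters GAGGAAG, a core bound by the macrophage factor PU.1, and TGANTCA, bound by AP-1, searched on both strands.
Cst7: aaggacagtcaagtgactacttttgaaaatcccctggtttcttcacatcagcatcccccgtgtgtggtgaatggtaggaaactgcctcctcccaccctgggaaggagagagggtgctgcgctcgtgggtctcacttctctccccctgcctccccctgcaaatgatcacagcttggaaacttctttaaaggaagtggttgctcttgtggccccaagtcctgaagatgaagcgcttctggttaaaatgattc
Clec7a: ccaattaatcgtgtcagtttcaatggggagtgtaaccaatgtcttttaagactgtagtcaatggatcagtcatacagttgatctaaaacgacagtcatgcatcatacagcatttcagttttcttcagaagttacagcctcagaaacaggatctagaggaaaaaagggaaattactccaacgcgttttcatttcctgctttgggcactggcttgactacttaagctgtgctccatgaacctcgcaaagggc
Itgax: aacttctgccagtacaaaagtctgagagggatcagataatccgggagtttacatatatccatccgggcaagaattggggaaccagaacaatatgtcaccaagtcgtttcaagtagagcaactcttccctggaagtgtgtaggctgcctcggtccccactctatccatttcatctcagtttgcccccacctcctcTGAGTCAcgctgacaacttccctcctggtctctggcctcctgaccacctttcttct
Trem2: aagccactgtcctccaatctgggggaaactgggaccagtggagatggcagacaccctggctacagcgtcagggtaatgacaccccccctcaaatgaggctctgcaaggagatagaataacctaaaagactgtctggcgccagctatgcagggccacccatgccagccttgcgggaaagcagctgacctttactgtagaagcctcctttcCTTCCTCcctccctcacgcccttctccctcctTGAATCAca
The PU.1 letters began 41 bases before the Trem2 start, and the AP-1 letters began 9 bases before the Trem2 start and 56 bases before the Itgax start. RefSeq start sites were matched for 8 of the 10 members, all but Tyrobp and Lpl. Of these 8, 2 (Trem2 and Axl) held the PU.1 letters and 3 (Trem2, Itgax and Cd68) held the AP-1 letters. The E-box CACGTG of lysosomal gene regulators was held by 0 of them. In that order, the letters were present in 10.6%, 6.75% and 6.02% of 32851 mouse promoter windows of the same length. These shares count windows, whereas the 8 genes had 11 windows and each gene was counted if any of its windows held the letters. Neither the PU.1 nor the AP-1 letters were found in full in the windows of Cst7 and Clec7a, and near matches were not searched. A match is a run of letters and was not tested as a binding site.

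Among the receptors, Trem2 (ENSMUSG00000023992, chr17:48346401-48354147, plus strand) encodes the lipid-sensing receptor of the pathway. Its CPM in PS19 mice was 28.2 in m677, 32.8 in m659, 19.4 in m668 and 17.0 in m665, and in Adrb1-A187V;PS19 mice 34.3 in m660, 27.9 in m658, 21.3 in m671 and 13.75 in m661. Mice of both genotypes were thus found at either end, and the means were 24.3 ± 7.40 and 24.3 ± 8.83 (log2 fold change -0.0019, SE 0.25). The 95% interval of the difference ran from -0.53 to 0.53 on the log2 scale. Tyrobp (ENSMUSG00000030579, chr7:30413760-30417585, plus strand) encodes the adaptor with an ITAM motif through which TREM2 signals. It was at 26.5 in m677, 27.4 in m659, 14.1 in m668 and 15.5 in m665, and at 27.0 in m660, 26.5 in m658, 17.6 in m671 and 11.7 in m661. The 4 high mice lay within 26.5 to 27.4 CPM and the other 4 within 11.7 to 17.6. Means were 20.9 ± 7.03 and 20.7 ± 7.39 (log2 fold change -0.01, SE 0.26). Per kilobase of gene model, the mean level of Tyrobp was 31.2 CPM and that of Trem2 was 4.92.

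Clec7a (ENSMUSG00000079293, chr6:129461591-129472779, minus strand) encodes Dectin-1, a receptor for β-glucan that also signals through SYK. Its CPM was 8.45 in m677, 11.3 in m659, 2.28 in m668 and 1.60 in m665 of the PS19 group. In Adrb1-A187V;PS19 mice it was 13.5 in m660, 10.8 in m658, 3.12 in m671 and 0.67 in m661. The high pair of each genotype lay above every mouse of the low pairs, and the genotype means were 5.91 ± 4.74 and 7.02 ± 6.10 (log2 fold change 0.25, SE 0.68, 95% interval -1.22 to 1.72). Axl (ENSMUSG00000002602, chr7:25757273-25788705, minus strand), a TAM receptor kinase that recognizes phosphatidylserine on dying cells through GAS6, had the smallest spread of the members. It ranged from 52.9 to 69.5 CPM in PS19 mice and from 50.6 to 71.8 in Adrb1-A187V;PS19 mice, with means of 60.1 ± 7.99 and 62.0 ± 10.5 (log2 fold change 0.04, SE 0.12). The 4 highest mice were nonetheless those of Clec7a, in another order among themselves, with these 4 mice at 64.1 or above and the other 4 at 55.4 or below.

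Of the surface molecules without a signalling role of this kind, Itgax (ENSMUSG00000030789, chr7:128129547-128150657, plus strand) encodes CD11c, the integrin alpha chain also found on dendritic cells. It was at 11.6 in m677, 10.8 in m659, 2.21 in m668 and 1.18 in m665, and at 12.99 in m660, 11.5 in m658, 2.34 in m671 and 1.20 in m661. No mouse lay between 2.34 and 10.8 CPM, and each genotype supplied 2 mice on each side of that gap. Its means were 6.44 ± 5.50 and 7.00 ± 6.09 (log2 fold change 0.13, SE 0.70, exact permutation p = 0.657, 2-sided). Cd9 (ENSMUSG00000030342, chr6:125460266-125494791, minus strand) encodes a tetraspanin present on microglia and on myelinating glia. It ranged from 28.7 to 45.1 CPM in PS19 mice and from 23.5 to 48.7 in Adrb1-A187V;PS19 mice (means 36.9 ± 9.26 and 37.9 ± 11.7, log2 fold change 0.04, SE 0.21). Its model overlaps the antisense genes Gm26728 and Gm28809, which held at most 13 and 5 counts in any library, and the strand setting of the counting is not given in the sources used here.

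Apoe and Lpl serve lipid transport and uptake. Apoe (ENSMUSG00000002985, chr7:19696109-19699188, minus strand) encodes the lipoprotein made mainly by astrocytes and, in DAM, by microglia, and was the most abundant member per kilobase at 819 CPM. It was at 2047 in m677, 2166 in m659, 1466 in m668 and 1362 in m665, and at 2022 in m660, 1831 in m658, 1682 in m671 and 1431 in m661. The same 4 mice were highest, with a step of 1.09 times between the fourth and the fifth. Genotype means were 1760 ± 405 and 1741 ± 249.5 (log2 fold change -0.02, SE 0.14). Lpl (ENSMUSG00000015568, chr8:68880491-68907448, plus strand) encodes lipoprotein lipase, which releases fatty acids from triglyceride-rich particles and is also expressed in neurons. It was the exception to the set of highest mice: PS19 mice held 27.2 in m677, 28.1 in m668, 24.5 in m665 and 26.5 in m659, and Adrb1-A187V;PS19 mice held 33.4 in m671, 18.6 in m661, 36.0 in m660 and 35.4 in m658. In the Adrb1-A187V;PS19 group 3 mice lay above all PS19 mice, and m661 was the lowest of the 8. The means were 26.6 ± 1.53 and 30.8 ± 8.22 (log2 fold change 0.21, SE 0.16, 95% interval -0.13 to 0.56, exact permutation p = 0.343, 2-sided). Without m661 the log2 fold change was 0.40, with an unadjusted p of 0.000179 and an adjusted p of 0.626 in edgeR. That run is singled out after the low value of m661 was seen. With any other mouse left out, the log2 fold change was 0.13 to 0.24 and the unadjusted p 0.199 to 0.464 in edgeR.

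Both lysosomal members were highest in the same 4 mice. Cd68 (ENSMUSG00000018774, chr11:69664213-69666153, minus strand) encodes a lysosomal membrane glycoprotein of phagocytes. Its CPM was 16.5 in m677, 17.1 in m659, 9.46 in m668 and 8.21 in m665, and 18.1 in m660, 15.4 in m658, 11.9 in m671 and 10.2 in m661. Means were 12.8 ± 4.64 and 13.9 ± 3.55 (log2 fold change 0.12, SE 0.23). Cst7 (ENSMUSG00000068129, chr2:150570415-150578944, plus strand) encodes cystatin F, an inhibitor of lysosomal cathepsins that resting microglia hardly express. In PS19 mice it was at 13.5 CPM in m677, 9.52 in m659, 2.62 in m668 and 0.614 in m665. In Adrb1-A187V;PS19 mice it was at 10.2 in m660, 9.90 in m658, 3.24 in m671 and 0.527 in m661. Each genotype thus held 2 mice at 9.52 CPM or above, 1 mouse at 2.62 or 3.24 CPM and 1 mouse under 1 CPM. The SD of Cst7 was nearly as large as its mean in both genotypes, 6.57 ± 6.01 and 5.98 ± 4.86 (log2 fold change -0.13, SE 0.74, exact permutation p = 0.886, 2-sided).

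**Figure D4:**
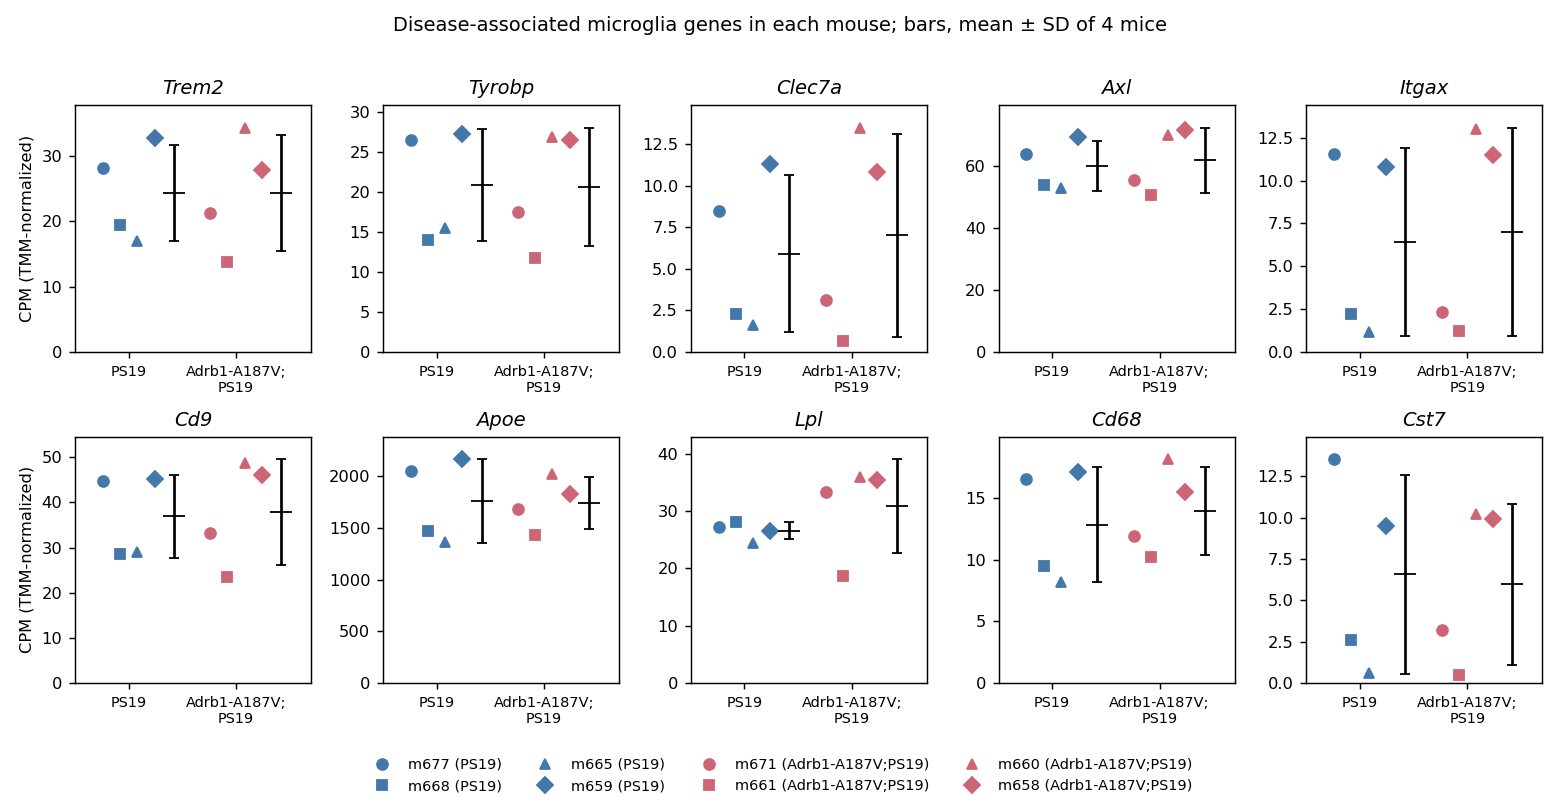
CPM of each DAM gene (y axes, each from 0) in the 4 PS19 mice (blue) and the 4 Adrb1-A187V;PS19 mice (red), with 1 symbol per mouse and black bars for the mean ± SD. In Itgax both genotypes hold 2 mice at 10.8 to 12.99 CPM and 2 mice at 1.18 to 2.34, and in Lpl the red square (m661) stands apart at 18.6.

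Further genes of the DAM state followed the members in both respects. Of 26 such genes listed, 25 were tested, and 0 of 25 passed the unadjusted threshold, with 18 above and 7 below 0 and a median log2 fold change of 0.04. In 17 of the 25 (68.0%) the same 4 mice were highest, against 3.84% of all genes. They included the cathepsins Ctsb, Ctsd, Ctsl and Ctsz, the secreted proteins Spp1, Ccl3, Ccl6, Csf1 and Lyz2, and B2m, the light chain of MHC class I. Lyz2 was at 28.8, 33.7, 15.4 and 15.2 CPM in m677, m659, m668 and m665 and at 40.4, 31.5, 16.3 and 15.9 in m660, m658, m671 and m661. Ctsd, an abundant lysosomal protease, spanned 177.9 to 299.8 CPM with the same 4 mice highest. Spp1, which encodes osteopontin, ran from 11.3 to 22.1 CPM in PS19 mice and from 8.05 to 23.7 in Adrb1-A187V;PS19 mice. Gpnmb, another DAM glycoprotein, did not have these mice highest: it was at 3.43 and 3.37 CPM in m677 and m659 and at 4.00 and 4.11 in m668 and m665. Fth1, the ferritin heavy chain and the most abundant of the list per kilobase, ranged only from 1358 to 1643 CPM and did not have them highest either.

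Downstream of the receptor, 18 of 20 listed TREM2 signalling genes were tested. Of these, 0 were higher and 1, the B-cell linker Blnk, was lower at an unadjusted p of 0.0401 in edgeR (log2 fold change -0.30, SE 0.13, adjusted p = 0.9996), against 1.37% of all genes in that direction. The same 4 mice were highest in 6 of the 18, namely Vav1, Pik3cg, Inpp5d, Ptpn6, Btk and Ms4a6d. SYK, the kinase that TYROBP recruits, was not in that set, and Syk ranged from 3.82 to 7.22 CPM. Among 15 lipid-handling genes, 0 passed the unadjusted threshold and 6 had the same 4 mice highest, among them the cholesterol exporter Abca1, at 68.0 to 77.8 CPM in those 4 mice and 49.5 to 59.8 in the other 4. Of the TAM receptor family, 0 of 4 genes passed, and in Mertk and the ligand Pros1 the 4 highest mice were those of Axl. Adam10, the protease that sheds TREM2, Lgmn, a lysosomal protease, and Tyro3, a TAM receptor, were the most abundant per kilobase of the TREM2 signalling, lipid-handling and TAM lists, at 81.1 to 93.9, 88.5 to 117.0 and 215.1 to 274.9 CPM. Of these, Lgmn had the same 4 mice highest.

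Genes of microglia in general varied with the members, and those of resting microglia varied less. In 12 of 14 general microglial genes, all but Aif1 and Itgam, the same 4 mice were highest, and the summed CPM of the list ran from 257.9 to 493.8 in PS19 mice and from 218.9 to 500.2 in Adrb1-A187V;PS19 mice. C1qa, a chain of the complement initiator C1q, was the most abundant of these per kilobase and was at 103.9, 120.6, 58.3 and 56.6 CPM in m677, m659, m668 and m665 and at 119.9, 108.3, 69.3 and 44.7 in m660, m658, m671 and m661. In the 15 homeostatic genes the ratio of the highest to the lowest mouse was 1.24 to 1.82, and 6 of them, among them Cx3cr1, Siglech and Csf1r, had the same 4 mice highest. Fcrls spanned 25.9 to 47.1 CPM, Csf1r, the receptor on which microglia depend, 86.3 to 142.1 and the fractalkine receptor Cx3cr1 53.1 to 88.5. The sum of this list is carried by Cst3 (mean 1006 CPM, the most abundant per kilobase) and Mef2c (687 CPM), both abundant in other brain cells. P2ry12, the purinergic receptor of resting microglia, was at 39.1, 41.2, 36.4 and 31.2 CPM in m677, m659, m668 and m665 and at 32.3, 41.9, 40.7 and 32.2 in m660, m658, m671 and m661. Mouse m660, with the highest Trem2, was thus among the lowest in P2ry12, and the ratio of Trem2 to P2ry12 ranged from 0.427 to 1.06. Tmem119 likewise did not have the same 4 mice highest, at 16.8 to 26.9 CPM. Neither list held a gene that passed the unadjusted threshold between genotypes (0 of 14 and 0 of 15).

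Reactive astrocyte genes moved with the DAM genes over the mice. The same 4 mice were highest in 8 of 12 such genes tested, Gfap, Vim, Serpina3n, C4b, Cd44, Osmr, Aspg and Cxcl10. Gfap, the intermediate filament that rises in reactive astrocytes, was at 748.4, 826.7, 256.6 and 219.6 CPM in m677, m659, m668 and m665 and at 837.9, 752.0, 353.6 and 181.7 in m660, m658, m671 and m661. The summed list spanned 385 to 1139 CPM in PS19 mice and 350.9 to 1154 in Adrb1-A187V;PS19 mice, and 0 of 12 genes passed the unadjusted threshold between genotypes. The summed list of general astrocyte markers was also highest in these 4 mice but spanned only 5164 to 5702 CPM. Over all genes with a mean of at least 1 CPM, the 10 whose log2 CPM varied most like the members, ranked by their mean Pearson correlation with the 10 members over the 8 mice, were Aqp4, Stat3, C1qb, Gfap, Lag3, Ctss, Tmem176a, Laptm5, C1qa and Fcrls. They included the astrocytic water channel Aqp4, which was at 164.5 to 184.1 CPM in the 4 mice and at 102.2 to 135.4 in the others. Taken singly, the gene most like Trem2 and Clec7a was Aqp4, and the nearest were Nckap1l for Tyrobp, Clu for Apoe and Cd68, Zfp36l2 for Cst7, B2m for Itgax, Osmr for Axl and Fcrls for Cd9. The gene nearest to Lpl was Sept10 (ENSMUSG00000019917), whose symbol is held in the table as a date. This pooled coefficient served only to rank genes, since in Cst7, Clec7a and Itgax it rests on a wide step between the mice, and it carries no test.

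**Figure D5:**
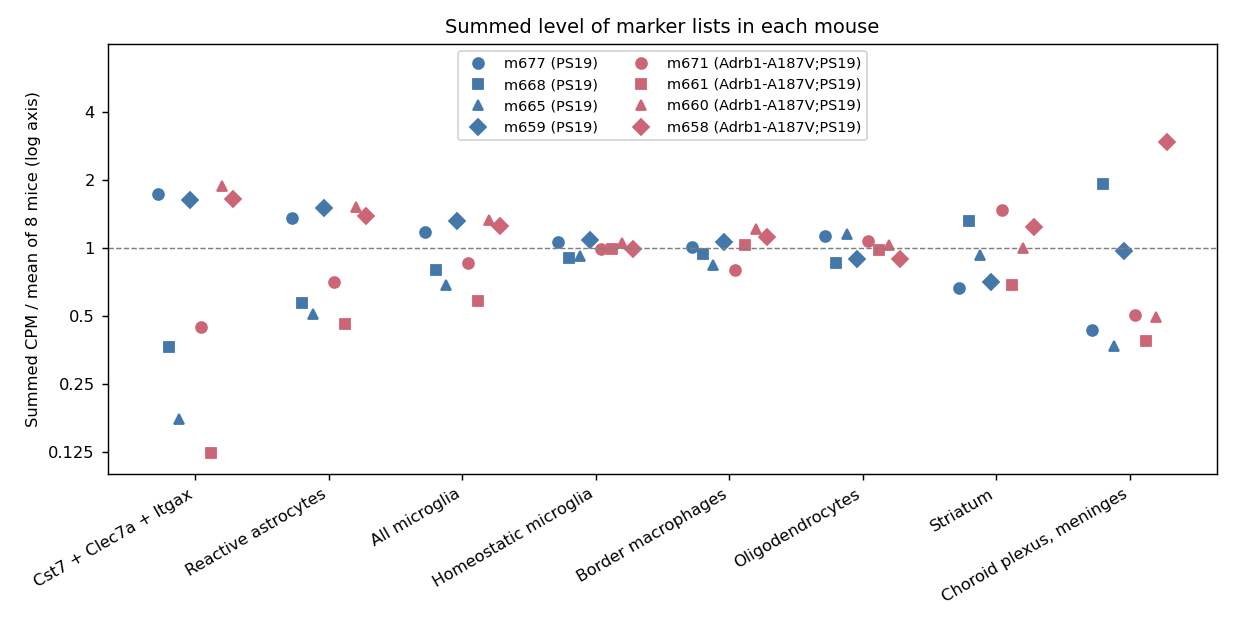
Summed CPM of each marker list in each mouse, divided by the mean of the 8 mice (y axis, log scale), with PS19 mice in blue and Adrb1-A187V;PS19 mice in red. Reactive astrocyte and general microglial sums (labelled all microglia) split the mice like Cst7, Clec7a and Itgax, homeostatic microglial sums, of which Cst3 and Mef2c make up the larger part, stay within 2026 to 2425 CPM, and striatal and choroid plexus sums do not have these mice highest.

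Lists for other cells and neighbouring tissue seldom or never had the same 4 mice highest. The same 4 mice were highest in 0 of 9 border macrophage, 0 of 12 oligodendrocyte, 0 of 11 endothelial and 0 of 12 cortical neuron genes. They were highest in 0 of 10 striatal and 0 of 5 blood genes, and among 10 choroid plexus and meningeal genes Col1a1 was the exception. Of 10 general astrocyte genes, 2 (Aqp4 and Gja1) had them highest. The share over all genes tested was 3.84%, so 0 in lists this short does not set them apart from other genes. The summed border macrophage genes spanned 35.0 to 44.3 CPM in PS19 mice and 33.2 to 50.8 in Adrb1-A187V;PS19 mice. Mice m660, m658 and m659 were the highest in that sum, followed by m661 at 43.1 CPM and m677 at 42.4. Of the monocyte and neutrophil genes, 2 of 11 were abundant enough to test, and Ccr2 was at 0.30 to 0.728 CPM. Ly6g was at 0 in all mice but m677, and of the T, NK and B cell genes 2 of 11 were tested, with Cd3e at 0.429 CPM or below. Summed striatal genes ranged from 1022 to 2258 CPM, with all 10 genes above 0 between genotypes (median log2 fold change 0.33) and 1 of them, Tac1, at an unadjusted p of 0.0341 in edgeR (log2 fold change 0.47, SE 0.20, adjusted p = 0.9996), against 1.42% of all genes in that direction. Of 10 astrocyte genes 1 was higher at the unadjusted threshold, the bicarbonate transporter Slc4a4 (log2 fold change 0.21, SE 0.05, unadjusted p = 0.00203 in edgeR). Of 12 cortical neuron genes 1 was higher, Gad2 of inhibitory neurons (0.24, SE 0.07), and 3 were lower, Slc17a7 (-0.19, SE 0.07), Tbr1 (-0.13, SE 0.06) and Neurod6 (-0.27, SE 0.08), all of excitatory neurons. Their unadjusted p in edgeR were 0.00325, 0.0217, 0.04995 and 0.00351 in that order. The adjusted p was 0.9996 for each of these and for Slc4a4. Over all genes tested, 1.42% were higher and 1.37% lower at the unadjusted threshold. The other lists named here, for border macrophages, monocytes and neutrophils, T, NK and B cells, oligodendrocytes, endothelial cells, choroid plexus and meninges, and blood, held 0 genes past the unadjusted threshold in edgeR. The most abundant genes per kilobase of the lists for other cells were Slc1a2, Stab1, Fn1, Trbc2, Mbp, Cldn5, Camk2a, Penk, Ttr and Hbb-bs. Choroid plexus and meningeal sums ranged from 80.4 to 638.2 CPM, highest in m658 and m668, 1 mouse with high and 1 with low DAM genes. The part of dissection in the levels of the members was not tested. Mitochondrial transcripts made up 5.30% of counts in m677, 4.65% in m659, 5.31% in m660 and 5.29% in m658, and 4.58% to 5.09% in the other 4, whose depth ranged both below and above that of these mice. The part of these shares in the levels of the members was not tested.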

How the data were processed

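Total RNA of the cortex of 8 mice was sequenced as paired-end reads. The deposited values are raw counts per gene, which the authors made by aligning reads to GRCm38 (mm10) with HISAT2 2.0.5 and counting them with featureCounts 1.5.0-p3, per the labels and the methods of the study. Settings for strand and for reads that match several genes are not given in the sources used here. Genes of the table that the edgeR function filterByExpr kept were fitted in all 8 mice with the quasi-likelihood test of edgeR 4.0.16 (R 4.3.3), with TMM factors and no covariate. Benjamini-Hochberg adjustment ran over all 17195 genes, and the threshold was 0.05. CPM are counts divided by the kept counts times the TMM factor. Log2 CPM used a prior count of 2. SE is the absolute log2 fold change divided by the square root of F. Exact permutation tests over the 8 mice were 2-sided. Gene positions are those of GRCm38.

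Groups came from the labels, which name each mouse, and replicates differed by more than sampling noise (chi-square per degree of freedom 4.50 to 9.20). Total counts of 14653222 to 21223754 per library set the precision. The fit was tested on simulated data. DESeq2 1.42.0, limma-voom (limma 3.58.1), other scalings, other filters and a homeostatic microglia covariate were tried. Members and gene lists were chosen with earlier results of these data known. Genes named are the members, up to 4 genes of a list under an unadjusted p of 0.05, the most abundant of a list per kilobase, the 10 most like the members, the nearest to each member, and Adrb1, Mapt and Prnp. Other listed genes were named after their values were seen. The planned correlations between members and with lists were left out because of the wide step between the mice in Cst7, Clec7a and Itgax. Values of some listed genes are not reported here.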

Additional observations from a re-analysis of the deposited data

Results flagged for a closer look

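Among the 20 groups of 4 values examined (10 genes in 2 genotypes), 1 held a mouse far from the others. In Adrb1-A187V;PS19 mice, Lpl in m661 was at 18.6 CPM, and the gap to the next mouse, m671 at 33.4 CPM, took up 0.848 of the range of the group, above the Dixon limit at the 95% level for 4 values. Chance alone gives such a gap in about 1 of 20 groups. Mouse m661 was also the lowest of the 8 in 7 of the 10 members. The cause was not tested.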

How the results depend on the processing

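No member passed the adjusted threshold under any alternative run. With every gene of at least 1 count kept, 1366 genes passed the unadjusted and 66 the adjusted threshold, and 1 member, Lpl, passed unadjusted (log2 fold change 0.21, adjusted p = 0.897, edgeR). The unadjusted count was 480 with DESeq2 size factors, 447 with at least 10 counts in every mouse, 555 with DESeq2, 492 with limma-voom and 604 with the homeostatic microglia covariate, against 481. Apoe changed sign with limma-voom (0.0026) and with the covariate (0.0002), and Clec7a with limma-voom (-0.0754).

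Leaving out 1 mouse at a time gave 431 to 674 genes unadjusted, 0 to 2 adjusted (1 without m661, 2 without m658) and 0 to 1 members unadjusted (Lpl, without m661). The median log2 fold change of the members ran from -0.1382 (without m660) to 0.2309 (without m661). Log2 fold changes then ran from -0.1199 to 0.0990 for Apoe, -0.0353 to 0.1299 for Axl, -0.0518 to 0.2921 for Cd68, -0.1073 to 0.2131 for Cd9, -0.2893 to 0.7792 for Clec7a, -0.5384 to 0.5050 for Cst7, -0.3648 to 0.5764 for Itgax, -0.2163 to 0.1989 for Trem2 and -0.1691 to 0.1864 for Tyrobp, all changing sign, and from 0.1289 to 0.3956 for Lpl, which did not. The count of members with the same 4 mice highest was 9, 9 and 8 under 3 other scalings chosen after seeing the data, the last without scaling. No paired analysis was possible because the mice carry only individual names in the labels, with nothing that ties a mouse of one genotype to one of the other. The alternatives planned for the mean correlation of the members were not run. With 4 mice a group, the 95% intervals of Cst7, Clec7a and Itgax reach beyond 2-fold in both directions. Changes of that size in these genes are therefore not excluded.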
